A study of Rattus norvegicus with 8 samples.

Results

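The genes examined were 9 genes of the p53 pathway, the GADD45 family and the DNA damage checkpoint, namely Mdm2, Cdkn1a, Ccng1, Gadd45a, Gadd45b, Gadd45g, Plk2, Plk3 and Sesn1. They were chosen by name, and a probe was taken when the array file gave it a rat RefSeq transcript of one of these genes. Probes were found for 8 of the 9 genes, as 9 probes on 20 spots per array, and 6 genes passed the filter on signal over background, among 13464 features tested in all. Sesn1 had no matched probe. The cells were NR8383, a single macrophage line established from rat lung lavage. One group of 4 arrays came from cells given ZnO at 16 µg/mL and the other group of 4 from cells given ZnO at 4 µg/mL, both for 4 h, and the series' design calls them biological replicates. Untreated cells were not analysed here, so a value at 4 µg/mL is not a baseline. The sample labels give 200 passages for the higher dose and 20 for the lower, and the 2 doses were on different slides with different scans. Effects of the dose and of the slide, the scan or the passage number therefore cannot be told apart.

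The protein p53 is a transcription factor that is stabilised after DNA damage and other stresses and raises the transcription of genes that halt the cell cycle, repair DNA or start cell death. Mdm2 is both a target and a brake of p53, because its product is the ubiquitin ligase that marks p53 for degradation. The GADD45 proteins bind cell cycle and MAP kinase partners, and their genes respond to many stresses with or without p53. Macrophages take up particles into acidic compartments, where ZnO can dissolve and release zinc.

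Of the 6 genes tested, 5 were higher at 16 µg/mL and 0 were lower at an adjusted p threshold of 0.05. Among all 13464 features the same rule called 19.8% higher and 21.9% lower, or 41.7% in either direction. In all 5 called genes the ZnO 16 arrays lay wholly above the ZnO 4 arrays, as did 18.6% of features with no missing value. Gadd45a, a growth arrest and DNA damage gene, was 8.85-fold higher, and Plk3, a stress-responsive polo-like kinase gene, was 7.12-fold higher. Gadd45b, a second member of the GADD45 family, was 4.02-fold higher and Cdkn1a, which encodes the cyclin-dependent kinase inhibitor p21, was 3.89-fold higher. Mdm2 was 2.47-fold higher, a fold that takes in 1 dim spot on ZnO 4 replicate 4. With areas of many dim spots left out, its log2 difference was 0.98 in place of 1.31. The Mdm2 call was lost with arrays unscaled and with spike-in scaling. Ccng1, the p53 target gene of cyclin G1, did not pass the threshold. Gadd45g and Plk2 were not well above background on any of the 8 arrays. In bulk RNA, a change in the share of cells that carry a transcript and a change in its amount per cell cannot be told apart.

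**Figure D1:**
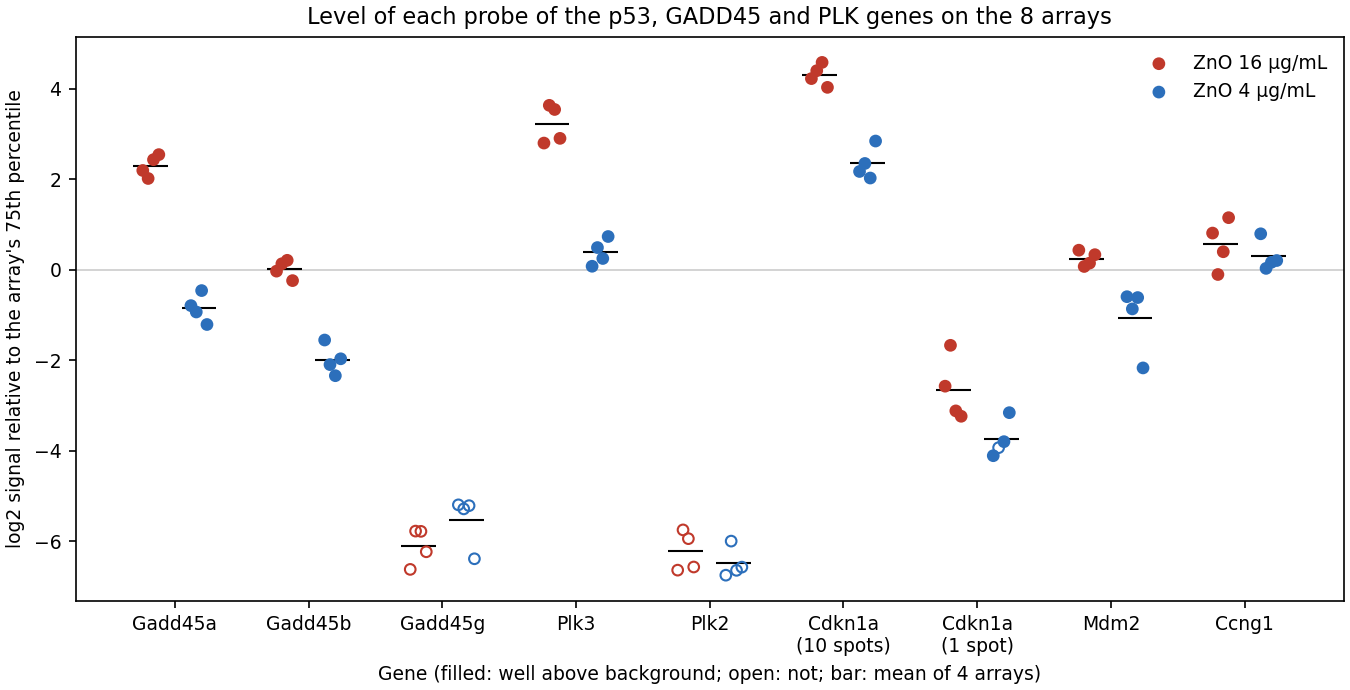
Level of each probe on each array, as log2 of the processed signal relative to the array's 75th percentile (vertical axis), for ZnO 16 (red, left of each pair) and ZnO 4 (blue, right), with 4 arrays per dose and a bar at each mean. Filled points are well above background and open points are not. Gadd45a, Gadd45b, Plk3, Mdm2 and the Cdkn1a probe with 10 spots have all 4 ZnO 16 arrays above all 4 ZnO 4 arrays, and Gadd45g and Plk2 have only open points.

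The promoters of the 5 genes that rose are shown because these genes moved in 1 direction together. Each sequence is the RefSeq stretch of assembly GRCr8 that runs from 250 bases before the gene's start to 50 bases after it, 5′ to 3′ on the gene's own strand. Mdm2 lies on the minus strand at chr7:55200742-55201041, Cdkn1a on the plus strand at chr20:7150682-7150981, Gadd45a on the minus strand at chr4:97486750-97487049, Gadd45b on the minus strand at chr7:9430669-9430968 and Plk3 on the minus strand at chr5:135848851-135849150. Capitals mark matches to the p53 half-site, to the cAMP response element half-site TGACG on either strand and to the E-box CACGTG.
Mdm2: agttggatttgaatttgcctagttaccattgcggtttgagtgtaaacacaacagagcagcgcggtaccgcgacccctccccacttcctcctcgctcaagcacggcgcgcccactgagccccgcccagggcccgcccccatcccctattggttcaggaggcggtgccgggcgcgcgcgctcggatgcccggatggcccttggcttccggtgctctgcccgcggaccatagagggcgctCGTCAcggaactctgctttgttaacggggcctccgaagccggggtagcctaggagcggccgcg
Cdkn1a: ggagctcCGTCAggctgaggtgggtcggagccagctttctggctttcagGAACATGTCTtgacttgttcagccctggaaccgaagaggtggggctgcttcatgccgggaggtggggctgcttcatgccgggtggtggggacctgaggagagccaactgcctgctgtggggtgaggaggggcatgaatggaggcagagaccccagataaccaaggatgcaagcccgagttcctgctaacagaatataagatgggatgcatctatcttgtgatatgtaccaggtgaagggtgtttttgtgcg
Gadd45a: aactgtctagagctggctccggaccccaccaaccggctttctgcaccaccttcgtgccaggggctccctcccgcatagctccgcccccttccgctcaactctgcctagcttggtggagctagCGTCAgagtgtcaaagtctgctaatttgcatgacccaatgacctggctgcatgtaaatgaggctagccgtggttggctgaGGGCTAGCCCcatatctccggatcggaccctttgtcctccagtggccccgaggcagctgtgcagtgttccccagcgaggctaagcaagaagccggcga
Gadd45b: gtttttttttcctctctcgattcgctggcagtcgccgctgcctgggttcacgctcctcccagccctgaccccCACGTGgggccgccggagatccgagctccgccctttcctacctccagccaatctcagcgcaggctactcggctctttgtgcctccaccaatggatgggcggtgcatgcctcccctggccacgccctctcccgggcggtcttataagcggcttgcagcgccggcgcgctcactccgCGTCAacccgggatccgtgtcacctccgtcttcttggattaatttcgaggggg
Plk3: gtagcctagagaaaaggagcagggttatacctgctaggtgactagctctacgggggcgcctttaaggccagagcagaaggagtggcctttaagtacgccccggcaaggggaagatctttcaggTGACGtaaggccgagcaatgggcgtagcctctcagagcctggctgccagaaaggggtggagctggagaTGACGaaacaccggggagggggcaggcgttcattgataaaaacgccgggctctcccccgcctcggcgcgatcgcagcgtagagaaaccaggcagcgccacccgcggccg

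All 5 of these windows held a match to TGACG, the part of the cAMP response element that ATF and CREB factors contact. Its first base stood at 13 bases before the start in Mdm2, 243 in Cdkn1a, 128 in Gadd45a and 3 in Gadd45b, and the matches in Plk3 stood at 127 and 59 bases before the start. Across the 9 genes, 7 windows held TGACG on either strand, against 21.2% of 33469 rat promoter windows of the same length. The windows compared, here and below, were not matched for base composition, and what part composition has in these shares was not tested. A p53 half-site, the decamer that p53 binds in pairs, was found in 4 of the 9 windows, against 7.98% of all windows. It stood 201 bases before the start in Cdkn1a as GAACATGTCT and 48 bases before the start in Gadd45a as GGGCTAGCCC, and the other matches were 232 bases before the start in Ccng1 and 172 in Sesn1. The Plk2 window held the full element TGACGTCA, which contains TGACG on both strands, 66 bases before the start, and 1.83% of all windows held it. The E-box was found in Gadd45b and Gadd45g, 2 of the 9 windows, against 6.42% of all windows. The composite site of CHOP and ATF4, TGATGNAA, was found in Gadd45g only among the 9 (3.98% of all windows), the heat shock core GAANNTTC in Ccng1 only (8.59%), and the AP-1 site TGANTCA in none (7.33%). These matches describe letters and not binding, and known p53 sites of Mdm2 and Gadd45a lie in introns outside such windows.

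Levels below are log2 signals relative to the array's own 75th percentile, listed for replicates 1 to 4, and differences are ZnO 16 minus ZnO 4 on that scale, with limma's moderated test adjusted by Benjamini-Hochberg over all 13464 features. A level of 1 probe cannot be set against that of another probe. Mdm2, measured by 1 probe with 2 spots, stood at 0.44, 0.08, 0.15 and 0.34 at 16 µg/mL, against -0.59, -0.86, -0.61 and -2.17 at 4 µg/mL. The doses did not overlap, and the array at -2.17 stood apart from the other 3 of its dose. Mdm2 averaged 0.25 ± 0.17 at 16 µg/mL and -1.06 ± 0.75 at 4 µg/mL (SD, n = 4 each), a difference of 1.31 (SE 0.31, 95% confidence interval 0.62 to 2.00, adjusted p = 0.00767 in limma). On ZnO 4 replicate 4 the 2 Mdm2 spots disagreed, at -3.46 and -0.87. The dim one lay at a place on the array where 20.9% of the neighbouring spots were dim. With such areas left out, a setting chosen after seeing the data, the difference was 0.98 (adjusted p = 0.000214), and without that array it was 0.94, so Mdm2 remained called at a smaller size. Scaling bore on it too, since with arrays left unscaled the Mdm2 difference was 0.55 (adjusted p = 0.35) and with spike-in scaling it was 0.50 (adjusted p = 0.381). Those scalings moved the median of all features to -0.75 and -0.80, and relative to that median Mdm2 was 1.30 higher in both.

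Cdkn1a was measured by a probe with 10 spots per array and by a second probe with 1 spot. The first read 4.23, 4.40, 4.59 and 4.03 at 16 µg/mL, against 2.18, 2.35, 2.03 and 2.85 at 4 µg/mL. The lowest array of the higher dose lay above the highest of the lower dose. Cdkn1a averaged 4.31 ± 0.24 at 16 µg/mL and 2.35 ± 0.36 at 4 µg/mL (SD, n = 4 each), a difference of 1.96 (SE 0.19, 95% confidence interval 1.55 to 2.38, adjusted p = 2.65e-05 in limma). Its repeated spots give the spread within an array, and their SD was 0.08, 0.17, 0.20 and 0.18 on the 4 ZnO 16 arrays and 0.06, 0.09, 0.08 and 0.16 on the 4 ZnO 4 arrays, with 9 usable spots on ZnO 4 replicates 3 and 4. This is a spread between spots and not between samples. In the processed signal, the spot in row 380 was the highest of the 10 on all 4 ZnO 16 arrays, by 0.23, 0.52, 0.59 and 0.51 over the mean of the others. In the raw median intensity, before the correction within the array, the same spot was the lowest of the 10 on each of them, at 5930.5, 2804, 3614 and 4819.5, against at least 5964.5, 2813, 4003 and 5538 for the others. On the ZnO 4 arrays its processed signal differed from the others by -0.04, -0.05, 0.01 and 0.15, and it was neither the highest nor, in raw intensity, the lowest.

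The second Cdkn1a probe gave a smaller and noisier difference. It read -2.57, -1.67, -3.11 and -3.23 at 16 µg/mL, against -4.10, -3.93, -3.79 and -3.15 at 4 µg/mL, and it was well above background on 4 of 4 and 3 of 4 arrays. Here the doses overlapped, because ZnO 4 replicate 4 lay above ZnO 16 replicate 4. Its difference was 1.10 (SE 0.36, adjusted p = 0.032 in a limma fit with each probe as its own feature, which called 20% of 15576 probes higher). Averaging both probes gave 1.53 for Cdkn1a, still past the threshold (adjusted p = 0.000603).

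**Figure D2:**
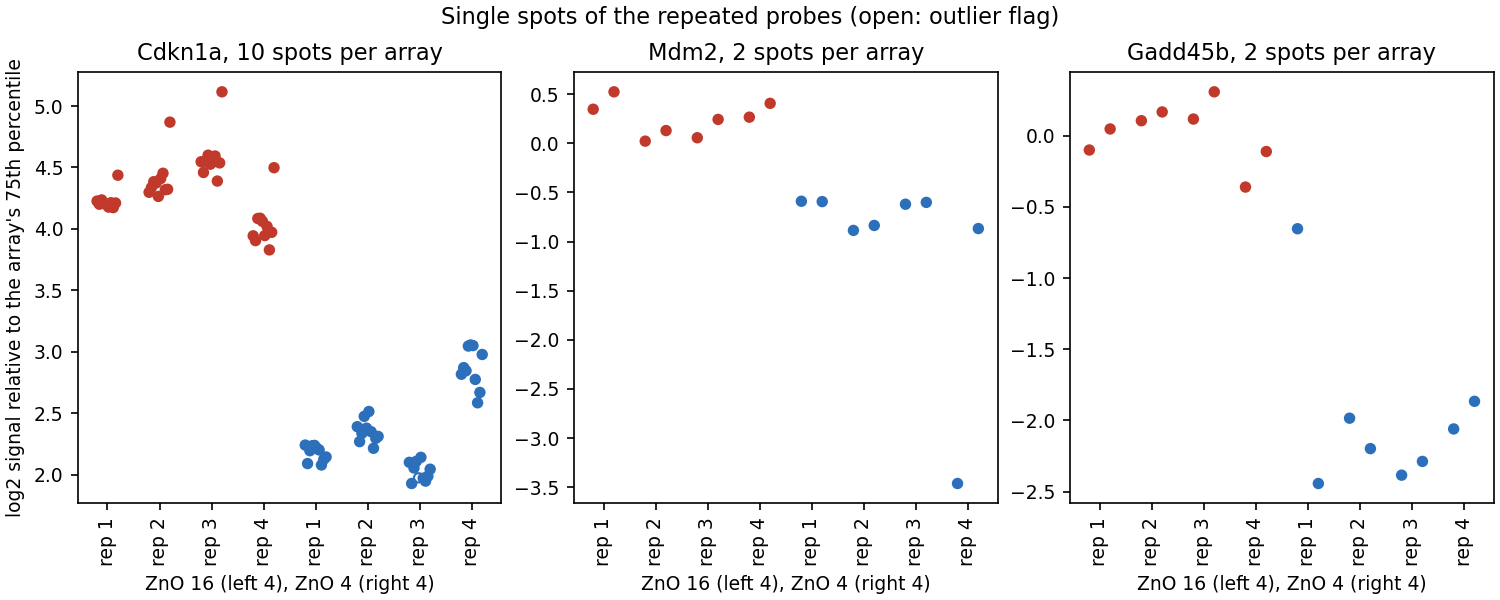
Single spots of the 3 probes printed more than once per array, as log2 signal relative to the array's 75th percentile, for Cdkn1a (10 spots), Mdm2 (2 spots) and Gadd45b (2 spots), with the 4 ZnO 16 arrays (red) left of the 4 ZnO 4 arrays (blue). Most repeated spots lie close together, and the exceptions are the Cdkn1a spot with a high processed signal on the ZnO 16 arrays, an Mdm2 spot at -3.46 on ZnO 4 replicate 4 and a Gadd45b spot at -0.65 on ZnO 4 replicate 1.

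Ccng1, whose product cyclin G1 takes part in a feedback on p53 through a phosphatase, was the tested gene of the 9 whose doses overlapped on the probe that stood for it. It stood at 0.81, -0.10, 0.40 and 1.15 at 16 µg/mL, against 0.80, 0.03, 0.17 and 0.21 at 4 µg/mL, on 1 spot. The doses overlapped, and the lowest of the 8 values was at 16 µg/mL. Ccng1 averaged 0.57 ± 0.54 at 16 µg/mL and 0.30 ± 0.34 at 4 µg/mL (SD, n = 4 each), and the difference of 0.27 had a 95% confidence interval of -0.32 to 0.85 (adjusted p = 0.443 in limma). That interval lies below the intervals of Gadd45a, Plk3, Gadd45b and Cdkn1a and overlaps that of Mdm2. With arrays unscaled the Ccng1 difference was -0.49 and with spike-in scaling -0.54, neither past the threshold.

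Gadd45a, which arrests cells at the G2 checkpoint through its effect on Cdk1 and activates p38 and JNK through Map3k4, had the largest difference of the 6. On its 1 spot it read 2.20, 2.02, 2.44 and 2.55 at 16 µg/mL, against -0.79, -0.93, -0.46 and -1.21 at 4 µg/mL. In linear units the processed signals were 1717, 612, 1029 and 2230 at 16 µg/mL, against 299, 164, 349 and 186 at 4 µg/mL. Every ZnO 16 array lay above every ZnO 4 array on either scale, and the nearest were 612 in ZnO 16 replicate 2 and 349 in ZnO 4 replicate 3. Gadd45a averaged 2.30 ± 0.24 at 16 µg/mL and -0.84 ± 0.31 at 4 µg/mL (SD, n = 4 each), a difference of 3.15 (SE 0.18, 95% confidence interval 2.75 to 3.54, adjusted p = 9.71e-07 in limma). Ordered from the highest difference without regard to background, it ranked 54 of 13464 features.

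Gadd45b, best known as an early gene of NF-kB and TGF-beta signalling, rose less far. It read -0.03, 0.14, 0.21 and -0.24 at 16 µg/mL, against -1.55, -2.09, -2.34 and -1.96 at 4 µg/mL, as means of 2 spots. The doses did not overlap. It averaged 0.02 ± 0.20 at 16 µg/mL and -1.99 ± 0.33 at 4 µg/mL (SD, n = 4 each), a difference of 2.01 (SE 0.19, 95% confidence interval 1.59 to 2.43, adjusted p = 2.40e-05 in limma). The highest ZnO 4 value was that of replicate 1, where the 2 Gadd45b spots read -0.65 and -2.44. Without the brighter of these, a setting chosen after seeing the data, the difference was 2.23. Gadd45g, the third family member, gave processed signals of 3.81, 2.76, 3.47 and 5.09 at 16 µg/mL, against 14.1, 8.05, 12.9 and 5.13 at 4 µg/mL. None of these was well above background, so no fold is given for Gadd45g.

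A scaling of the arrays cancels when 2 genes are compared within each array. The level of Gadd45a minus that of Gadd45b was 2.22, 1.88, 2.22 and 2.78 at 16 µg/mL, against 0.76, 1.16, 1.88 and 0.76 at 4 µg/mL. That gap was wider by 1.14 at 16 µg/mL, and every ZnO 16 array lay above every ZnO 4 array, although replicate 2 of ZnO 16 and replicate 3 of ZnO 4 lay close together. Permuting the dose over the 8 arrays (exact permutation test, two-sided, 70 assignments) gave p = 0.0286, the smallest it can give with 4 arrays against 4, and an adjusted p = 0.0572 over the 2 pairs tested, which misses the threshold. Cdkn1a minus Mdm2 averaged 4.06 ± 0.37 at 16 µg/mL and 3.41 ± 1.10 at 4 µg/mL (SD, n = 4 each), wider by 0.65 (exact permutation p = 0.314, adjusted p = 0.314). Without ZnO 4 replicate 4, the array with the dim Mdm2 spot, both pairs reached the smallest p such a design allows (exact permutation test, adjusted p = 0.0286), at 1.19 for Cdkn1a minus Mdm2 and 1.01 for Gadd45a minus Gadd45b. With the mean of both Cdkn1a probes, Cdkn1a minus Mdm2 was wider by 0.22 (exact permutation test, adjusted p = 0.714). Without any 1 of the ZnO 16 arrays, Gadd45a minus Gadd45b had an adjusted p of 0.114 in the exact permutation test.

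Plk3, a kinase that can phosphorylate p53 and acts in stress checkpoints, stood at 2.80, 3.64, 3.55 and 2.91 at 16 µg/mL, against 0.08, 0.49, 0.25 and 0.74 at 4 µg/mL. Replicates 2 and 3 of the higher dose were the highest, and the doses did not overlap. Plk3 averaged 3.22 ± 0.43 at 16 µg/mL and 0.39 ± 0.29 at 4 µg/mL (SD, n = 4 each), a difference of 2.83 (SE 0.22, 95% confidence interval 2.35 to 3.31, adjusted p = 6.21e-06 in limma). It ranked 81 from the highest difference, ahead of Gadd45b at 235, Cdkn1a at 250, Mdm2 at 618 (dim spot included) and Ccng1 at 4580. Plk2, its relative and a p53 target, gave processed signals of 3.77, 2.81, 3.10 and 4.03 at 16 µg/mL, against 4.81, 4.91, 4.81 and 4.52 at 4 µg/mL, and none was well above background.

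**Figure D3:**
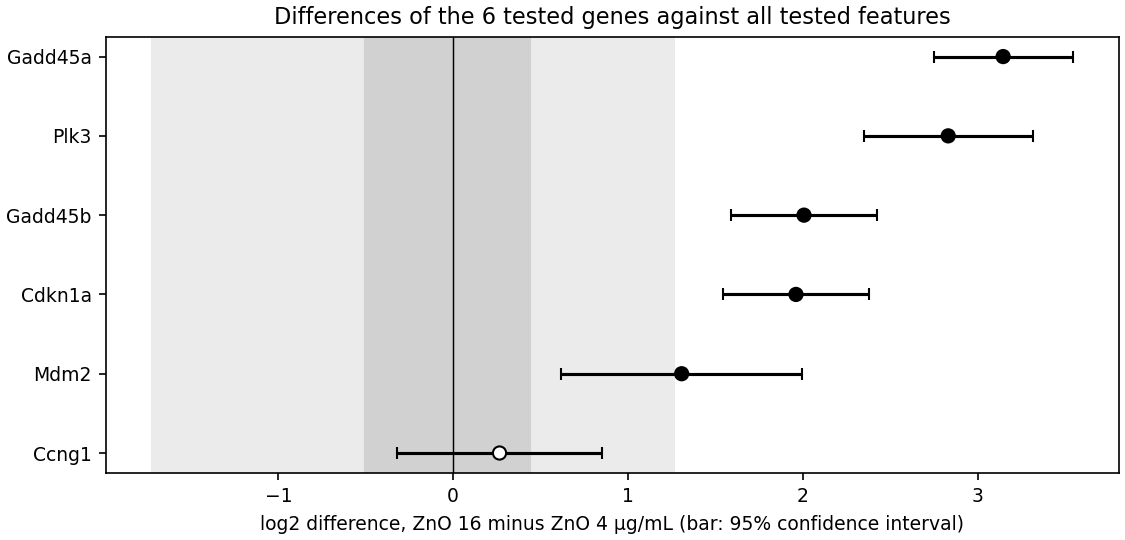
Difference between doses (ZnO 16 minus ZnO 4, log2 scale) of the 6 tested genes with 95% confidence intervals; filled points passed an adjusted p of 0.05. The light band runs from the 5th to the 95th percentile of all tested features (-1.72 to 1.26). The dark band runs from the 25th to the 75th (-0.50 to 0.44). The 5 called genes lie above 1.26 and Ccng1 lies in the dark band. Mdm2, at 1.31, takes in a dim spot on ZnO 4 replicate 4, and its difference was 0.98 with areas of many dim spots left out.

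**Figure D4:**
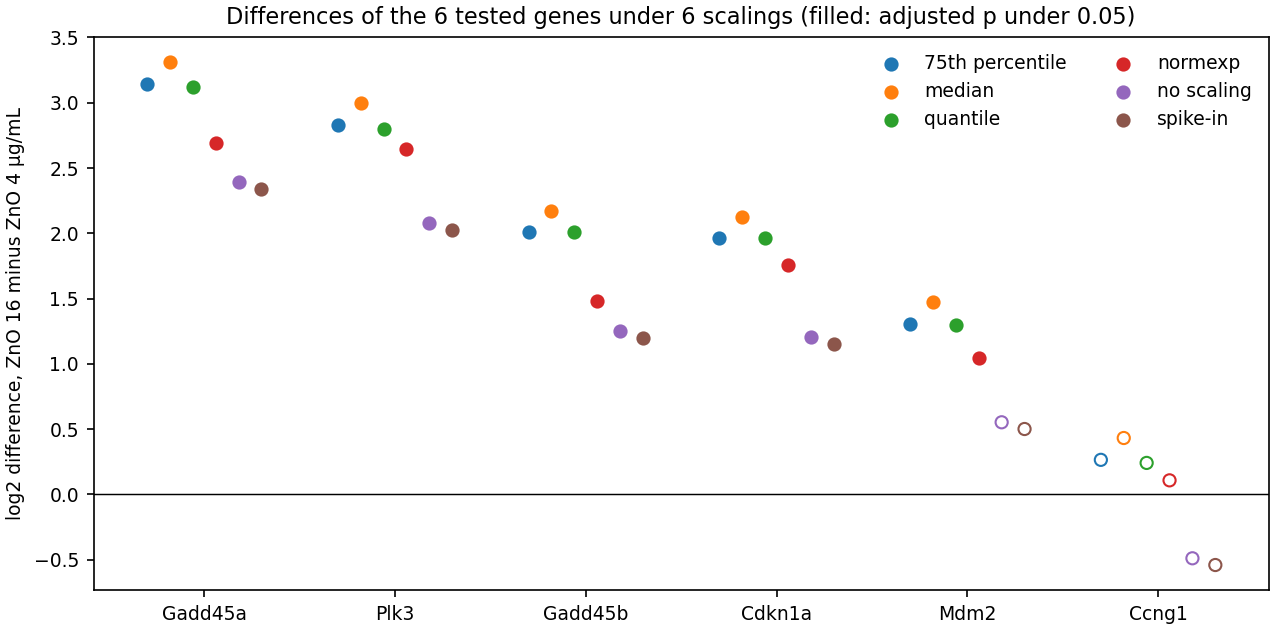
Difference between doses (ZnO 16 minus ZnO 4, log2 scale) of the same 6 genes under 6 ways of scaling or correcting the arrays; filled points passed an adjusted p of 0.05. Gadd45a, Plk3, Gadd45b and Cdkn1a stay filled in all 6, Mdm2 is open without scaling and with spike-in scaling, and Ccng1 is open throughout and below 0 in those same settings.

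The rest of the pathway was described by 6 lists that together hold 100 genes, of which 69 were tested. Of these 69, 21 (30.4%) were higher at 16 µg/mL and 12 (17.4%) were lower, against 19.8% and 21.9% of all features. The other 36 did not pass, and the median difference was 0.07 beside 0.01 for all features. The split of the 69 genes depended on scaling. With arrays unscaled 2 were higher and 16 lower, and with spike-in scaling 2 and 19, where all features gave 230 higher and 4412 lower, and 225 higher and 5078 lower. With median scaling all features gave 3408 higher and 1979 lower, and with normexp 2781 and 1996, against 2672 and 2942 as reported. The number of list genes called lower was 7 without ZnO 4 replicate 3.

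Of 8 tested regulators of p53, 1 (12.5%) was higher, 5 (62.5%) were lower and 2 did not pass, with a median of -0.54. Among all features 19.8% were higher and 21.9% were lower. With probes required to be well above background on all 8 arrays, 3 of these regulators were lower. With normexp 1 was higher and 2 were lower, and with median scaling likewise. Leaving out replicate 2 of ZnO 16, or replicate 3 or 4 of ZnO 4, left 3 lower. Mdm4, the relative of Mdm2 that binds and inhibits p53, differed by 0.94 (SE 0.28, adjusted p = 0.0211), its doses overlapped, and its second probe gave 0.43 (adjusted p = 0.548 in the probe fit). Without ZnO 16 replicate 1 or ZnO 4 replicate 2 the Mdm4 call was lost, at adjusted p = 0.0526 and 0.0602. It was lost too without scaling (0.19) and with spike-in scaling (0.14). Rchy1, a ubiquitin ligase gene that also targets p53, was not well above background on any ZnO 16 array. It passed the filter through ZnO 4 only, where 3 arrays were above background, and was at least 2.19-fold lower. Its call (adjusted p = 9.38e-05 in limma) belongs to a fitted difference of -3.37, which uses the ZnO 16 signals below background. That call was lost with normexp (adjusted p = 0.332). Crebbp, an acetyltransferase and coactivator gene, fell by 1.59 (adjusted p = 0.000154) and Ppm1d, the phosphatase that switches p53 signalling off, fell by 0.83 (adjusted p = 0.0345). With normexp the Crebbp difference was -0.40 (adjusted p = 0.101) and that of Ppm1d -0.13 (adjusted p = 0.518), and the Ppm1d call also ended on leaving out replicate 2 or 3 of ZnO 16, or replicate 3 or 4 of ZnO 4.

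Of 15 tested p53 target genes outside the 9, 10 (66.7%) were higher, 0 were lower and 5 did not pass. The list's median was 0.51, and 19.8% of all features were higher. Gdf15, a secreted stress cytokine of the TGF-beta family, read 5.70, 5.85, 5.55 and 5.88 at 16 µg/mL, against 0.99, 1.77, 1.08 and 1.48 at 4 µg/mL. Its difference of 4.41 (SE 0.18, adjusted p = 1.09e-07 in limma) ranked 15 from the highest of all features. Sesn2, the sestrin relative of Sesn1 and an inhibitor of mTORC1, read 1.28, 1.79, 1.82 and 1.41 at 16 µg/mL, against -1.79, -1.34, -1.16 and -0.86 at 4 µg/mL, a difference of 2.86 (SE 0.21, adjusted p = 4.43e-06). Both genes have well known inducers other than p53, among them ATF4. Tp53inp1, a p53-induced stress protein gene, rose by 1.19 (SE 0.22, adjusted p = 0.00202), a call lost without scaling (0.44) and with spike-in scaling (0.39). Gdf15 and Sesn2 were the 2 of these targets still called higher in both of those settings. Without scaling 0 of these targets were called lower, and with spike-in scaling 2 were.

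Of 13 tested damage sensor and checkpoint kinase genes, 2 (15.4%) were higher, 1 (7.69%) was lower and 10 did not pass. Among all features 19.8% were higher and 21.9% were lower. The list's median was 0.04. H2ax, the histone variant phosphorylated at DNA breaks, rose by 0.84 (SE 0.25, adjusted p = 0.0218), and Cdc25b, a phosphatase that activates Cdk1, rose by 0.80 (SE 0.17, adjusted p = 0.0037). Without scaling the H2ax difference was 0.09 and that of Cdc25b 0.04, and with spike-in scaling they were 0.04 and -0.01, none called. The Cdc25b call also ended with normexp (adjusted p = 0.0771), and H2ax was also lost without ZnO 4 replicate 1 (adjusted p = 0.0559) or 3 (adjusted p = 0.0611). Rad1, a subunit of the checkpoint clamp, fell by 0.58 (SE 0.20, adjusted p = 0.0373), and this call held in 10 of 22 alternative settings. Levels of the transcripts say nothing of the phosphorylation by which these kinases act.

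Among 8 tested relatives of the 9 genes, 2 (25%) were higher, 2 (25%) were lower and 4 did not pass. Of all features 19.8% were higher and 21.9% were lower. The list's median was -0.11. The higher ones were Sesn2 and Mdm4, given above. Cdkn1b, which encodes p27, the sister inhibitor of p21, fell by 1.22 (SE 0.14, adjusted p = 8.29e-05), where Cdkn1a rose. Its levels were -1.25, -1.03, -1.30 and -1.03 at 16 µg/mL, against 0.11, 0.01, 0.22 and -0.10 at 4 µg/mL, and its second probe fell by 2.38. Plk1, the mitotic polo-like kinase gene, fell by 0.92 (SE 0.18, adjusted p = 0.00269), where Plk3 rose. It read 2.85, 2.62, 2.73 and 2.16 at 16 µg/mL, against 3.29, 3.57, 3.31 and 3.86 at 4 µg/mL, with no overlap. The calls of Cdkn1b, Plk1, Gdf15 and Sesn2 were kept in all 22 alternative settings.

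Another list held cyclins, kinases and other partners that p21 and the GADD45 proteins bind. Of 13 tested, 2 (15.4%) were higher, 2 (15.4%) were lower and 9 did not pass, with a median of 0.03. Among all features 19.8% were higher and 21.9% were lower. Cdk4, a G1 kinase, rose by 0.97 (SE 0.13, adjusted p = 0.000342) and Ccnb2, a mitotic cyclin gene, by 0.35 (SE 0.11, adjusted p = 0.0233). Without scaling these differences were 0.21 and -0.40 and with spike-in scaling 0.16 and -0.45, none called, and the second Ccnb2 probe gave 0.28 (adjusted p = 0.12 in the probe fit). Ccne1, the cyclin E1 gene, fell by 0.43 (adjusted p = 0.0182) and Pcna, the replication clamp that p21 binds, fell by 0.39 (adjusted p = 0.0248). The single-array omissions that ended these small calls were those of replicate 2 of ZnO 16 and of replicates 3 and 4 of ZnO 4 for Ccnb2, and of replicate 1 of ZnO 4 for Ccne1. For Pcna they were those of replicates 1 and 3 of ZnO 16 and of replicates 3 and 4 of ZnO 4. With median scaling neither Ccne1 (-0.26) nor Pcna (-0.22) was called, and Ccne1 was also not called with normexp.

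Of 16 excision repair genes tested, 6 (37.5%) were higher, 2 (12.5%) were lower and 8 did not pass, with a median of 0.07. Among all features 19.8% were higher and 21.9% were lower. Without scaling 0 genes of this list were higher and 3 lower, and with spike-in scaling 0 and 4. Ercc1, the nuclease subunit gene of nucleotide excision repair, read 2.32, 2.91, 3.01 and 2.25 at 16 µg/mL, against 1.36, 1.70, 1.26 and 1.67 at 4 µg/mL, a difference of 1.12 (SE 0.20, adjusted p = 0.00145). Ung, a uracil glycosylase gene, also rose by 1.12 (adjusted p = 0.00241) and so did Ercc8, a gene of transcription-coupled repair (1.12, adjusted p = 0.000465). Polb, the base excision repair polymerase gene, fell by 1.06 (SE 0.25, adjusted p = 0.00701). Without scaling Ercc1, Ung and Ercc8 differed by 0.37, 0.37 and 0.36 and with spike-in scaling by 0.32, 0.32 and 0.31, none called, and with normexp Ercc1 (0.38, adjusted p = 0.115) and Polb (-0.16, adjusted p = 0.55) were lost.

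**Figure D5:**
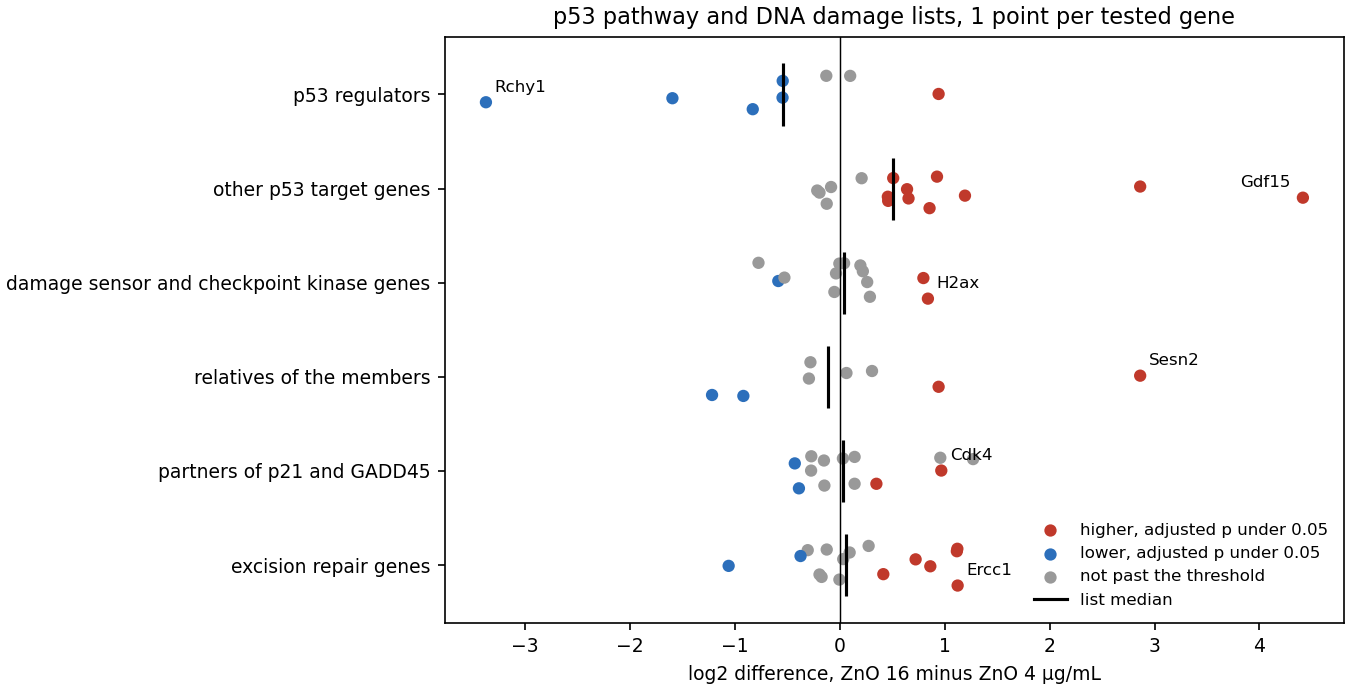
Difference between doses (ZnO 16 minus ZnO 4, log2 scale, horizontal axis) of each tested gene in 6 pathway lists, 1 point per gene, red for higher, blue for lower and grey for not past an adjusted p of 0.05, with a vertical bar at each list's median and the called gene of largest difference named. Red points make up 10 of 15 among other p53 targets, and grey points make up 10 of 13 among damage sensors and checkpoint kinases. Of all tested features 19.8% were called higher and 41.7% were called in either direction.

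The genes whose levels over the 8 arrays were most like those of Gadd45a were Klf6 (Pearson r = 0.9993), Atf3 (0.9942) and Pfkfb3 (0.993). Those most like Cdkn1a were Qars1 (0.9967), Man2b2 (0.9945) and Zfp668 (0.9943), and those most like Mdm2 were Mbtps1 (0.9956), Styx (0.9905) and Cars1 (0.9865). These are descriptions over 8 arrays whose main division is the dose, chosen as the highest among all tested genes with an ordinary symbol. Of these correlated genes, Atf3, Qars1, Zfp668, Mbtps1 and Cars1 each had a spot in a dim area of ZnO 4 replicate 4, the array on which a spot of Mdm2 was dim. Mbtps1, Styx and Cars1 were lowest on that array, as Mdm2 was, at -1.70, -3.96 and -3.66. On the other ZnO 4 arrays they read -0.02 to 0.39, -2.92 to -2.65 and -2.03 to -1.65. How far the r values with Mdm2 rest on that array was not tested.

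The arrays had 31.4% to 39.3% of probes well above background. The 75th percentile of signal ran from 150.7 to 381.2 at 16 µg/mL, against 312.6 to 516 at 4 µg/mL, and ZnO 16 replicate 4 had 608 spots with a non-uniformity flag where the other arrays had 3 to 21. Dim areas, here and above, are those where over 10% of the neighbouring spots were dim or the whole area was dim. They held 13.1% of spots on ZnO 4 replicate 4 and 8.26% on ZnO 16 replicate 4. Areas dim as a whole held 2.66% of spots on the first of these arrays and 0% on the second. Of 10 macrophage markers, 8 were well above background on all 8 arrays, and Marco and Adgre1 on none; their summed signal relative to the 75th percentile was 291 to 384 at 16 µg/mL, against 292 to 344 at 4 µg/mL, most of it from Lyz2 and Tyrobp. Of the 8 markers, Spi1 was higher by 0.81, and Cd68 and Itgam fell by 1.74 and 0.52, named because they were the 3 that passed; what part this has in the other differences was not tested. Among 5 epithelial, 4 fibroblast and 3 lymphocyte markers, 3 (Sftpc, Scgb1a1 and Sftpb), 1 (Col1a1) and 1 (Cd3g) were well above background on at least 1 array and 0 on all 8, and the summed signal of each list was at most 0.196.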

How the data were processed

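Total RNA of 8 samples was labelled with Cy3 and hybridised to 1-colour Agilent arrays, per the labels' protocols. The submitters' processing notes name Agilent Feature Extraction 11.0.1.1. Its processed signal, as deposited, is a linear intensity corrected within the array for background and for a spatial trend, with no scaling between arrays, per the file headers. The deposited columns also hold 0 or 1 flags, and the file headers give raw median intensity of spot and local background, used for normexp with an offset of 50.

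Control spots were left out. Accessions were matched to a RefSeq table of assembly GRCr8 for names and promoter sequences only, since the file headers name rn4. Of 45598 probes, 21109 had a symbol. The log2 of the processed signal minus the array's 75th percentile was used. Spots flagged as non-uniform or as population outliers were set to missing, and spots of a probe were averaged. Probes had to be well above background on 3 or more arrays of 1 dose, and the brightest probe stood for its gene. This left 13464 features, of which 7980 had a symbol. No spot of the 9 genes was saturated. limma 3.58.1 in R 4.3.3 (lmFit, eBayes with an intensity trend, two-sided) was run on all features with Benjamini-Hochberg adjustment. It was also run on simulated data, and no result of that run is used here. For Rchy1, below background at 16 µg/mL, the fold is a bound against the lowest signal well above background. The number of arrays limits the precision.

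The 9 genes and all lists were chosen with earlier results of these data known. Named genes were the 9, Mdm4 and Sesn2, from each list the 3 called genes that differed most in the direction most of its calls took and 1 in the opposite direction, and the 3 genes most correlated with Gadd45a, Cdkn1a and Mdm2. One gene of the planned rule and lists is not reported here and was left out of the list counts. Of 5 pairs planned for the permutation test, those with Gadd45g or Plk2 were not run. Alternatives covered scaling, background correction, the filter, the probe rule, dim areas, the replicate block and each array left out. The labels do not say whether replicates came from separate cultures, so p-values measure the spread between these samples, which may be technical.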

Additional observations from a re-analysis of the deposited data

Results flagged for a closer look

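A single array stood far from the other 3 of its dose for 4 of the named genes, all at 4 µg/mL, on the log2 scale relative to the 75th percentile. Gadd45g on ZnO 4 replicate 4 read -6.38, where the other ZnO 4 arrays read -5.28 to -5.19, a gap to the nearest array of 0.925 of the whole range; all of these values are below background. Tp53inp1 on ZnO 4 replicate 4 read -2.97, where the others read -3.68 to -3.59, a gap of 0.876. Atf3, one of the genes most like Gadd45a, read -0.64 on ZnO 4 replicate 4, where the others read -0.13 to -0.11, a gap of 0.959, and its probe had a spot in a dim area of that array. Ercc8 on ZnO 4 replicate 2 read -3.17, where the others read -2.93 to -2.91, a gap of 0.924. Chance gives such a gap in about 5% of groups of 4, and 80 groups were looked at. None of the 6 tested genes of the p53, GADD45 and polo-like kinase set met this rule; the gap of Mdm2 on ZnO 4 replicate 4 came just under the critical value.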

How the results depend on the processing

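Over 22 alternative settings, of which 3 were added after seeing the data, the calls of Gadd45a, Plk3, Gadd45b and Cdkn1a were kept, with highest adjusted p (limma) of 0.000149, 9.55e-05, 0.0224 and 0.00952. Their differences ran over 2.34 to 3.31, 2.03 to 3.05, 1.20 to 2.23 and 1.16 to 2.22. Mdm2 ranged over 0.50 to 1.47 and lost its call without scaling and with spike-in scaling, which left 4 of the 9 genes called. Leaving out 1 array at a time gave 0.94 to 1.46 for Mdm2 and 0.07 to 0.49 for Ccng1, and 5 of the 9 genes stayed called.

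For the pathway lists, genes called higher numbered 2 without scaling and 2 with spike-in scaling, and 17 to 19 with 1 array left out. Genes called lower numbered 5 with median scaling, 6 with normexp, 19 with spike-in scaling and 7 to 11 with 1 array left out. With 1 array left out, Gadd45a minus Gadd45b was wider by 0.97 to 1.39 and Cdkn1a minus Mdm2 by 0.40 to 1.19 at 16 µg/mL. Over all settings run they were wider by 0.84 to 1.39 and by 0.22 to 1.31. The cause of these shifts was not tested.

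Replicate numbers were shared by both doses. Deviations of same-numbered arrays correlated at -0.22 to 0.404, and 4 of 8 arrays correlated best with their own number. Such weak correlations over so few arrays cannot decide whether the numbers pair the samples. With the replicate number as a block, 5 of the 9 genes were called higher and the lists gave 21 higher and 12 lower; Mdm2 had an adjusted p of 0.012. Signal over background limits Gadd45g and Plk2, for which no difference could be measured.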
